A study of Arabidopsis thaliana with 16 samples.

Results

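The comparison was between the gynoecia of 2 Arabidopsis thaliana single mutants, seu-3 (genotype label seuss-3) and ant-1 (genotype label aintegumenta-1), set directly against each other. All 4 seu and all 4 ant arrays entered it, which is 8 of the 16 arrays in the series. The other 8 arrays, 4 of the double mutant seu-3 ant-1 and 4 of the Col-0 wild type, entered only the shared estimate of the spread and a description of where the named genes lie in those genotypes. Every array held RNA from 1 biological sample, a pool of 15 to 25 hand-dissected gynoecia of floral stages 8 to 10, so no value belongs to a single plant. In which accession each mutant line arose is stated neither in the labels nor in the methods.

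SEUSS (SEU) is a transcriptional co-regulator that lacks a DNA-binding domain of its own and works with partner proteins such as LEUNIG. AINTEGUMENTA (ANT) is a transcription factor of the AP2 family that promotes organ growth. In the gynoecium both act in the carpel margin meristem, the tissue at the fused edges of the carpels from which ovules and much of the septum, style and stigma arise. The study describes very minor changes in the shape of either single mutant's gynoecia at the earlier of the stages sampled. By its account, ovule primordia are nearly as many as in wild type in seu but clearly fewer in ant. The double mutant fails to form ovule primordia. A direct comparison of the single mutants asks in which transcripts loss of one regulator differs from loss of the other. It uses no wild-type array on either side, so that a value here does not say which mutant departed from wild type.

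The SEU transcript checked the labels. Its signal was 181, 340.0, 325 and 309.9 on the seu arrays, against 909.7, 813, 749 and 943 on the ant arrays. No seu array reached the lowest ant array, and the log2 difference, seu minus ant, was -1.60 (standard error 0.17, limma adjusted p = 0.000205). Signal here is a scaled array intensity in arbitrary units, and each value under 16 was set to 16 before the log2 was taken. The seu ant arrays gave 235 to 273 and the wild-type arrays 786 to 978. The probe set of ANT was not analysed here. Median signal per array was 167.7 to 187.9 in seu and 153.1 to 173.6 in ant, and correlations between arrays were 0.981 to 0.986 within seu, 0.978 to 0.985 within ant and 0.971 to 0.982 between the genotypes. For 5 array measures, the 3′ over 5′ control signals among them, exact two-sided permutation tests gave p = 0.286 to 0.657, where the smallest p that 4 against 4 arrays allow is 0.0286.

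A probe set was called different where the adjusted p of limma's moderated test was under 0.05 and the log2 difference was over 0.35. Of 22746 probe sets, 426 were called higher in seu than in ant (1.87%) and 240 lower (1.06%), 2.93% in all. At an unadjusted p under 0.05, 2010 were higher and 1492 lower. The split between the directions depended on the scaling, because with each array centred on its median 333 probe sets were higher and 338 lower. The counts moved by over 1.5 times without ant replicate 2 (263 higher, 148 lower) and without seu replicates 1 (267, 148), 2 (266, 152) and 4 (270, 151), and without seu replicate 3 the lower count was 159. Among 13621 genes that a probe set could be named for, 225 were higher in seu (1.65%) and 119 lower (0.874%), 2.53% in all. The seu and ant arrays did not overlap for 333 of these 344 genes, and over all named genes they did not overlap for 1173 (8.61%). Median differences were 0.95 among the genes called higher and -0.85 among those called lower. Counts of called list members are to be read beside the 1.65%, 0.874% and 2.53% of all named genes.

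**Figure D1:**
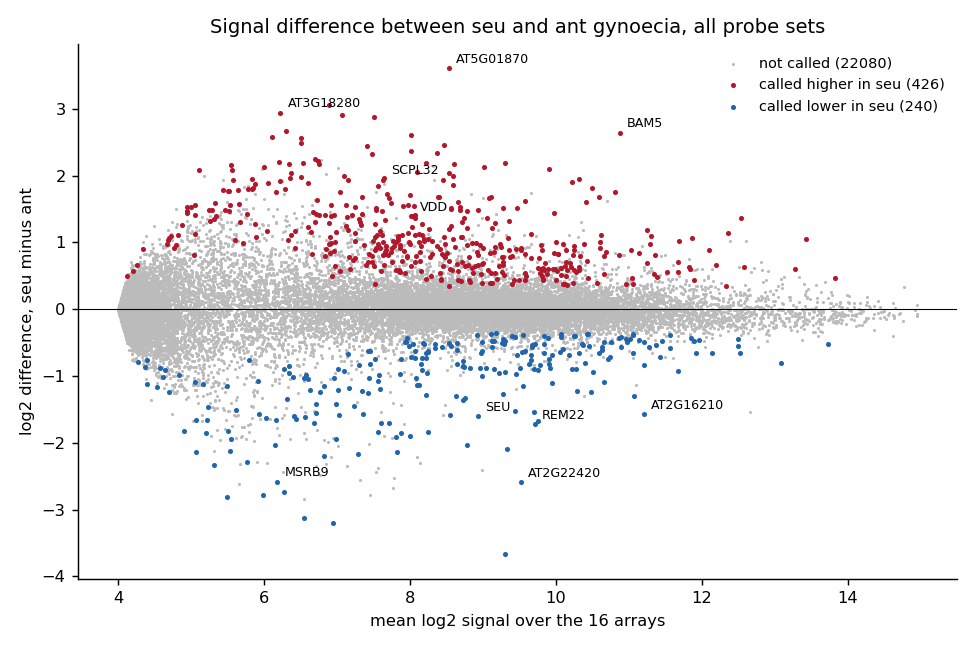
Log2 difference, seu minus ant, of each of the 22746 probe sets (vertical axis) against its mean log2 signal over all 16 arrays (horizontal axis), with the 426 called higher and the 240 called lower in seu coloured. The calls spread over the whole range of signal, and AT5G01870 and BAM5 stand out among those higher in seu.

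Among the genes with the largest excess in seu were putative lipid transfer proteins, beta-amylase and protease genes, and several genes of regulatory or unnamed annotation. The largest difference among genes whose arrays did not overlap was in AT5G01870, a putative lipid transfer protein of the class that binds and carries lipids outside the cell. AT5G01870 gave 1132, 1014, 954 and 1003 in seu, against 79.7, 87.4, 88.0 and 81.1 in ant. The arrays within each genotype lay close together, and the log2 difference was 3.61 (standard error 0.39, limma adjusted p = 0.000241), or 12.2-fold. AT3G18280, a member of the family that joins protease inhibitors, seed storage proteins and lipid transfer proteins, had 156, 169, 175 and 182 in seu and 23.4, 34.6, under 16 and 18.6 in ant, a difference of 2.94 (standard error 0.47, limma adjusted p = 0.00468). The ant values lay near the floor, which bounds this fold change. A pair of further genes of this family, named after their values were seen, were also called. AT1G48750 differed by 1.10 (standard error 0.15) with 3379.6 to 3892 in seu and 1515 to 1876 in ant. AT5G55450 differed by 1.57 (standard error 0.35), a call that was lost without single arrays (limma adjusted p = 0.0776 without ant replicate 1). SHN3, an AP2-type regulator of the SHINE clade that promotes wax and cutin formation, had 98.7, 119, 92.6 and 136 in seu and 43.7, 74.4, 27.4 and 44.5 in ant, a difference of 1.31 (standard error 0.27, limma adjusted p = 0.021). That call was lost without single arrays (limma adjusted p = 0.0667 without seu replicate 4).

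Beta-amylases release maltose from starch. BAM5 was the brightest of the genes with large differences, at 5454, 5163, 4402 and 5040.1 in seu, against 912, 1036, 657 and 661 in ant. Every seu array lay far above the highest ant array, and the difference was 2.64 (standard error 0.24, limma adjusted p = 9.17e-05), or 6.25-fold. Chloroplast beta-amylase, listed under the symbol CT-BMY, had 1144, 827, 689 and 657 in seu and 193, 239, 532 and 169 in ant. One ant array lay well above the other three but still under every seu array. The difference was 1.67 (standard error 0.35, limma adjusted p = 0.0213), with limma adjusted p = 0.067 without seu replicate 1. Gene lists were matched mostly by gene symbol, so that their counts leave out members that carry no such symbol. The 2 beta-amylase genes were the only called members of 21 measured genes of sugar transport, starch and low-energy response, whose median difference was 0.36 beside 0.00 over all named genes. DYL1, a dormancy-associated gene, had the largest difference of that list that was not called, 1.93 (standard error 0.73, limma adjusted p = 0.205), on arrays that spread over 61.5 to 493 in seu and 24.1 to 99.7 in ant.

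JMT methylates jasmonic acid and so makes the volatile ester methyl jasmonate. Its signal was 482, 367, 236 and 202 in seu, against 64.8, 60.5, 48.7 and 50.2 in ant. All seu arrays lay above all ant arrays, though they spread more widely, and the difference was 2.45 (standard error 0.45, limma adjusted p = 0.0108). AT5G12270, an oxidoreductase of the 2OG-Fe(II) oxygenase family, had 663, 668, 411 and 571 in seu and 109, 84.3, 133 and 62.2 in ant, a difference of 2.61 (standard error 0.30, limma adjusted p = 0.000433). AT3G10080, a putative germin-like protein, of a family of secreted glycoproteins, differed by 2.37 (standard error 0.38, limma adjusted p = 0.00512), with 461 to 693 in seu and 76.7 to 152 in ant.

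Proteases and vacuolar enzymes formed a further group, though not in one direction. AT4G21650, a subtilase, that is a secreted serine protease, had 613, 658, 630.2 and 642 in seu and 128, 61.8, 144 and 159.7 in ant. Its seu arrays were nearly equal, and the difference was 2.45 (standard error 0.31, limma adjusted p = 0.00096). BETA-VPE, a vacuolar processing enzyme that cleaves stored proteins in seeds, had 163, 193, 189 and 142 in seu and 46.3, 35.2, 35.9 and 34.1 in ant, a difference of 2.18 (standard error 0.35, limma adjusted p = 0.00499). SCPL32, a serine carboxypeptidase-like gene, had 818, 591, 818 and 773 in seu, against 186, 195, 202 and 194 in ant, and differed by 1.94 (standard error 0.19, limma adjusted p = 0.000128). The ant arrays of SCPL32 were close to one another. Its relative scpl41 was under 16 on all 4 ant arrays and had 51.4, 31.8, 37.0 and 42.9 in seu, at least 2.51-fold higher (limma adjusted p = 0.0143), a call that was lost with a floor of 32 (limma adjusted p = 0.613). The reverse held for SCPL45, which differed by -0.37 (standard error 0.08, limma adjusted p = 0.0315), and for scpl25, which differed by -0.55 (standard error 0.10, limma adjusted p = 0.00833). Of 37 measured subtilases and carboxypeptidase-like genes found by symbol, AT4G21650 not among them, 2 were higher in seu, 2 lower and 33 not called, with a median of -0.03. The share called over all named genes was 2.53%. The call of SCPL45 depended on single arrays (limma adjusted p = 0.0885 without seu replicate 1).

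Several further genes among the 15 largest positive differences have regulatory annotation or none. AT1G69580, annotated as a transcription factor, had 142, 208, 177 and 190.1 in seu and 44.0, 20.8, 27.7 and 39.1 in ant, a difference of 2.49 (standard error 0.26, limma adjusted p = 0.000205). AT4G37180, a myb family transcription factor, differed by 2.19 (standard error 0.42, limma adjusted p = 0.0125), with 561, 511, 468 and 625 in seu and 150.2, 56.1, 334 and 68.0 in ant. Here the ant arrays fell into a lower and a higher pair, and all 4 lay under the seu arrays. The products of AT1G60590, AT5G59305, AT3G53990, AT2G25510 and AT3G53950 are not named in the annotation used, and their differences were 2.67, 2.57, 2.34, 2.33 and 2.22. Of these, AT3G53990 (limma adjusted p = 0.0951 without ant replicate 2) and AT2G25510 (limma adjusted p = 0.112 without seu replicate 3) lost their calls when single arrays were left out.

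**Figure D2:**
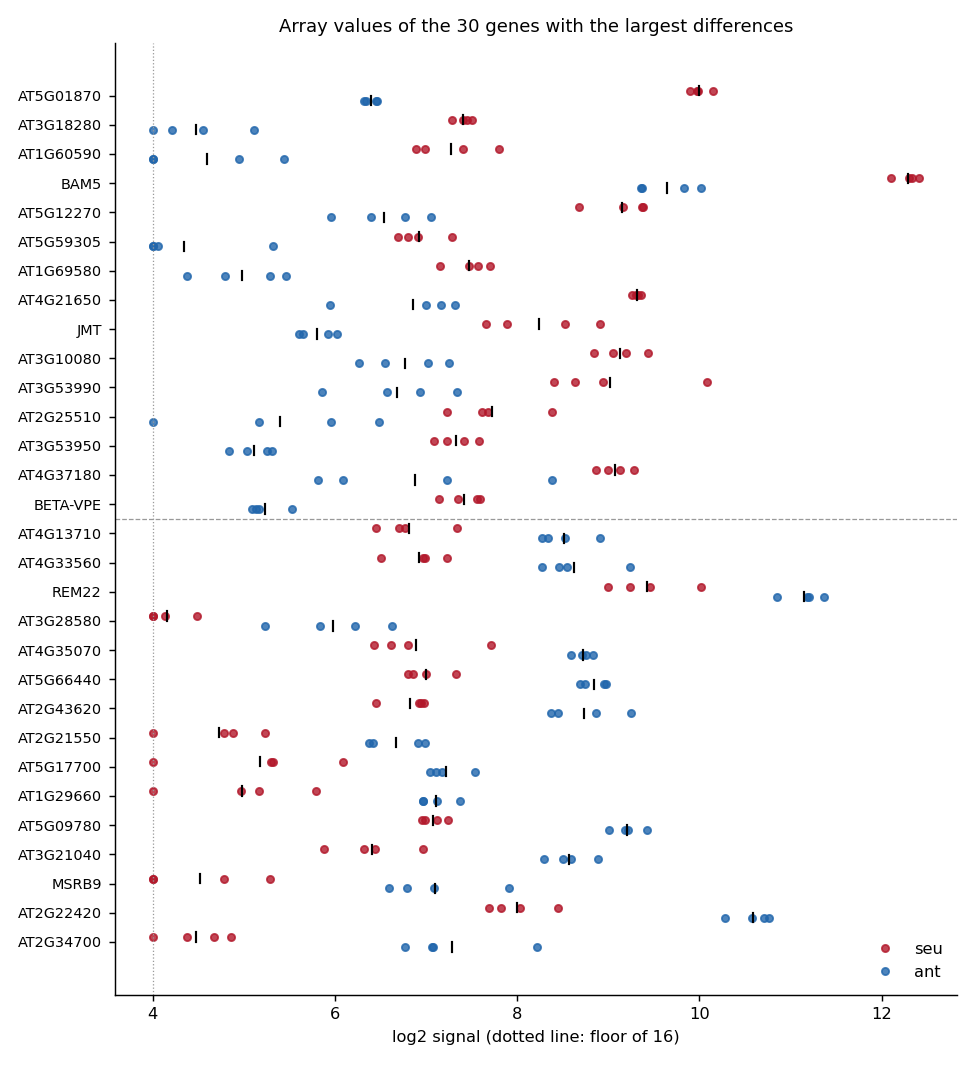
Log2 signal on each of the 4 seu arrays (red, upper row of each gene) and 4 ant arrays (blue, lower row) for the 15 genes with the largest positive and, under the dashed line, the 15 with the largest negative difference among calls without overlap of the 2 genotypes. Short black bars are group means and the dotted line is the floor of 16. BAM5 is the brightest gene shown, and several of the dimmer groups touch the floor.

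A gene of chlorophyll synthesis and several of cell wall building also lay higher in seu. PORB, named after its values were seen, reduces protochlorophyllide in chlorophyll synthesis. Its signal was 874, 1245, 617 and 1463 in seu, against 322, 302, 372 and 299 in ant, a difference of 1.63 (standard error 0.27, limma adjusted p = 0.00528). None of 29 measured photosystem and light-harvesting genes was called in either direction by limma, although 5 had an unadjusted p under 0.05 and 2 were called higher in seu with a trended, robust fit. Their median difference was 0.32, and Lhca5, an antenna protein of photosystem I, had the largest, 1.11 (standard error 0.33, limma adjusted p = 0.102), with 353 to 633 in seu and 124 to 291 in ant. Among wall genes, TBL36, of the TRICHOME BIREFRINGENCE-LIKE family that acetylates wall polysaccharides, had 466, 420.1, 412 and 368 in seu and 123, 114, 94.3 and 75.7 in ant, a difference of 2.05 (standard error 0.20, limma adjusted p = 0.00013). XTH32, a xyloglucan-modifying enzyme, had 1371, 1483, 1411 and 1530.5 in seu and 879, 829.6, 677 and 760.4 in ant, a difference of 0.89 (standard error 0.17, limma adjusted p = 0.0131). FXG1, an alpha-fucosidase that removes fucose from xyloglucan and was named after its values were seen, differed by 1.75 (standard error 0.16, limma adjusted p = 0.000117), with 2677 to 3384 in seu and 712 to 1228 in ant. AT2G26440, the pectin methylesterase gene PME12, differed by 1.07 (standard error 0.22, limma adjusted p = 0.0185). It lost the call without single arrays (limma adjusted p = 0.0568 without seu replicate 1).

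Other wall genes were lower in seu. AT4G13710, a pectate lyase family gene whose products cut pectin, had 104, 161, 109 and 87.7 in seu, against 324, 310.4, 479 and 369 in ant, a difference of -1.70 (standard error 0.18, limma adjusted p = 0.000241). Expansins loosen the wall during growth, and 2 of them were called. EXPA15 had 1032, 962, 952 and 856 in seu and 1528, 1698, 2196 and 1682 in ant, a difference of -0.89 (standard error 0.20, limma adjusted p = 0.0272). EXPB1 had 99.0, 92.6, 81.0 and 45.3 in seu and 127, 183, 180.4 and 144 in ant, a difference of -1.04 (standard error 0.23, limma adjusted p = 0.0309). Both expansin calls were lost without single arrays, with limma adjusted p = 0.0811 without seu replicate 4 for EXPA15 and limma adjusted p = 0.0869 without ant replicate 2 for EXPB1. Of 30 measured expansins and xyloglucan enzymes, 1 was higher in seu, 2 were lower and 27 were not called, and the median was -0.09. Among all named genes 2.53% were called. Of 54 genes of cellulose, hemicellulose and lignin building, TBL36 was higher, the endoglucanase gene GH9B13 was lower, with a difference of -0.66 (standard error 0.16), and 52 were not called. The GH9B13 call was close to the threshold at limma adjusted p = 0.0481 and was lost without single arrays (limma adjusted p = 0.13 without seu replicate 4).

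COR15B, which encodes a chloroplast protein made in the cold, had 171, 177, 106 and 171 in seu and 47.2, 47.6, 89.5 and 54.4 in ant, a difference of 1.41 (standard error 0.25, limma adjusted p = 0.00953). It was the only called member of 5 measured genes of cold, dehydration and abscisic acid response, whose median was 1.09. COR15A and COR47, of the same group, differed by 1.54 (standard error 0.59) and 1.09 (standard error 0.40) and were not called. GSTU26, a glutathione transferase, had 1025, 1079, 648 and 874 in seu and 268, 374, 339.5 and 295 in ant, a difference of 1.49 (standard error 0.17, limma adjusted p = 0.000501), and was the only one called of 13. For the lists in this paragraph, the share called over all named genes was 2.53%. The cytochrome P450 genes CYP71B6 and CYP71B26 were called of 32, with differences of 1.40 (standard error 0.21) and 1.52 (standard error 0.26). CYP71B26 had 1252, 1163, 827 and 735 in seu and 479, 402, 220.2 and 308 in ant. Of 9 measured heat shock proteins and factors, Fes1B and HSFB4 were called, by 1.47 (standard error 0.28) and 0.67 (standard error 0.13), and the median was -0.04. HSFB4 lost its call when 1 array was left out (limma adjusted p = 0.0504 without seu replicate 2), and Fes1B with a floor of 32 (limma adjusted p = 0.0989). UGT84A1, which transfers glucose to sinapate, was the only one called of 47 UDP-glycosyltransferases, at 449 to 656 in seu and 768 to 1134 in ant, a difference of -0.88 (standard error 0.19, limma adjusted p = 0.024) that was lost without single arrays (limma adjusted p = 0.0707 without seu replicate 2).

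Of the gene lists, that of B3 transcription factors held the most genes called lower in seu. These proteins bind DNA through the plant-specific B3 domain, and those of the REM group are known for expression in reproductive meristems. Of 13 measured members of the REM and RAV groups (of 21 listed), 5 were lower in seu, 1 was higher and 7 were not called. Over all named genes, 0.874% were lower and 1.65% higher. The median over the 13 was -0.77, and 3 were lower without any one of ant replicates 1, 3 and 4 or seu replicates 1 and 2. The list was drawn up with earlier results of these data known, and the study chose some of these genes on the same samples. Their number is therefore not independent evidence of a direction.

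AT5G09780, listed also as REM25, had 124, 127, 139.5 and 151 in seu, against 594, 689, 516 and 581 in ant, a difference of -2.13 (standard error 0.22, limma adjusted p = 0.000205). Its groups were far apart and each was tight. AT2G16210, listed also as REM24, was bright, at 1716, 1430.3, 1389.6 and 1430.4 in seu and 4058, 4351, 5259.8 and 4079 in ant, and differed by -1.57 (standard error 0.14, limma adjusted p = 9.17e-05). REM22 had 702, 606, 509 and 1035 in seu and 2352, 2638, 1843 and 2326 in ant, a difference of -1.72 (standard error 0.39, limma adjusted p = 0.0333). Its groups lay well apart, but the standard error takes in the spread in all 4 genotypes, and the call was lost without single arrays (limma adjusted p = 0.0892 without ant replicate 2). The NGATHA genes of the RAV group direct style and stigma formation. NGA1 had 236, 271, 254 and 234 in seu and 562, 546, 454 and 643 in ant, a difference of -1.14 (standard error 0.22, limma adjusted p = 0.0158). NGA2 had 75.1, 94.6, 134 and 142 in seu and 255, 221, 243 and 263 in ant, a difference of -1.18 (standard error 0.25, limma adjusted p = 0.0234), which was lost without single arrays (limma adjusted p = 0.0679 without seu replicate 1). NGA3 and NGA4 also had negative differences, -0.77 (standard error 0.25) and -1.32 (standard error 0.39), which were not called (limma adjusted p = 0.137 and limma adjusted p = 0.0941).

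VDD, a B3 gene needed in the female gametophyte, was called in the opposite direction. Its signal was 574, 584, 622 and 569 in seu, against 243, 253, 158 and 253 in ant. Every seu array was far above every ant array, and the difference was 1.40 (standard error 0.15, limma adjusted p = 0.000251). AT3G19184, known as REM1, differed by 0.91 (standard error 0.29, limma adjusted p = 0.126), on the same side as VDD but not called. AT5G57720, known as REM15, and AT3G53310, known as REM16, had -0.59 (standard error 0.22) and -0.49 (standard error 0.16) and were not called either.

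IQ67-domain proteins bind calmodulin, the calcium sensor, and many associate with microtubules. Of 16 measured, 3 were lower in seu, 1 was higher and 12 were not called, with a median of -0.17. Without ant replicate 1 the lower count was 1, and without seu ant replicate 3 it was 5. Over all named genes, 0.874% were lower in seu and 1.65% higher. IQD22 had 189.9, 214, 224 and 174 in seu and 332, 381, 367 and 418 in ant, a difference of -0.90 (standard error 0.14, limma adjusted p = 0.00369). IQD27 had 100.3, 87.7, 41.9 and 89.4 in seu and 185, 160.5, 189 and 168 in ant, a difference of -1.21 (standard error 0.25, limma adjusted p = 0.0216), and IQD23 differed by -0.85 (standard error 0.17, limma adjusted p = 0.0183). Of the genes lower in seu, only IQD22 kept its call whichever array was left out, since IQD27 (limma adjusted p = 0.0587 without ant replicate 3) and IQD23 (limma adjusted p = 0.0579 without seu replicate 4) did not. The one gene on the other side was iqd33, at 468 to 649 in seu and 251 to 322 in ant, a difference of 0.93 (standard error 0.21, limma adjusted p = 0.0287) that was also lost without single arrays (limma adjusted p = 0.0832 without seu replicate 2).

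**Figure D3:**
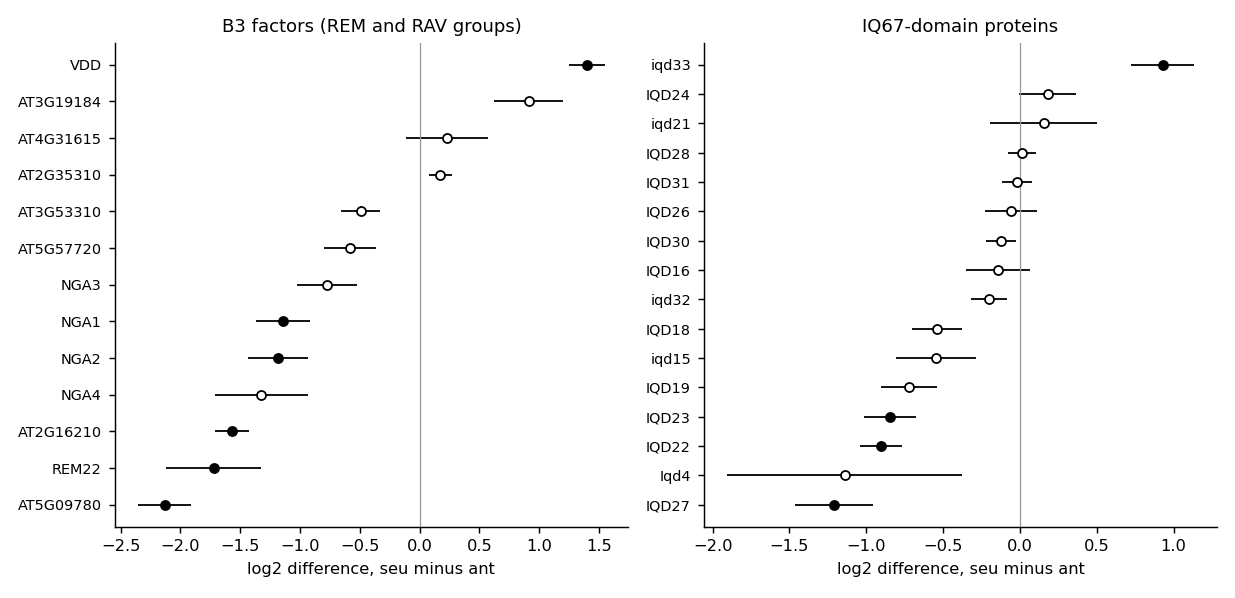
Log2 difference, seu minus ant, of each measured B3 factor of the REM and RAV groups (left, 13 genes) and each measured IQ67-domain protein (right, 16 genes), with the standard error as a horizontal line. Filled points were called. VDD and iqd33 are the called genes to the right of 0.

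The remaining genes with the largest deficits in seu had varied annotation. AT2G22420, peroxidase 17, a secreted enzyme of a class that acts on the wall and on lignin, had 262, 206, 226 and 349 in seu, against 1676, 1534, 1248 and 1738 in ant. The difference was -2.59 (standard error 0.18, limma adjusted p = 3.53e-05), or 6.02-fold lower in seu. MSRB9, a methionine sulfoxide reductase that repairs oxidized methionine in proteins, had under 16, 27.4, under 16 and 39.0 in seu and 241, 135, 96.8 and 111 in ant. The difference was -2.58 (standard error 0.47, limma adjusted p = 0.0096), and because some seu arrays lay under 16 its size depends on the floor. AT1G29660, a GDSL-motif lipase, differed by -2.13 (standard error 0.39, limma adjusted p = 0.00993), and AT5G17700, a transporter of the MATE efflux family, by -2.04 (standard error 0.40, limma adjusted p = 0.0158). OLEO3, an oleosin, which coats oil bodies, had 31.5 to 75.0 in seu and 153 to 187 in ant, a difference of -1.66 (standard error 0.36, limma adjusted p = 0.0262), lost without single arrays (limma adjusted p = 0.0725 without seu replicate 1). AT3G21040, annotated as a transposable element gene, had 125, 86.9, 80.1 and 59.1 in seu and 314, 362, 475 and 386 in ant, a difference of -2.17 (standard error 0.22, limma adjusted p = 0.000202).

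AT2G34700 had the largest negative difference, -2.80 (standard error 0.30, limma adjusted p = 0.000246), with 25.6, under 16, 29.0 and 20.8 in seu and 135, 134, 298 and 109 in ant. The seu arrays of AT2G34700 lay at or near the floor. The products of AT2G34700, AT2G21550, AT2G43620, AT5G66440, AT4G35070, AT3G28580 and AT4G33560 are not named in the annotation used, and those after the first differed by -1.95, -1.91, -1.85, -1.84, -1.82 and -1.71. AT4G35070 (limma adjusted p = 0.0509 without seu replicate 1), AT3G28580 (limma adjusted p = 0.101 without ant replicate 3) and AT4G33560 (limma adjusted p = 0.0698 without seu replicate 2) lost their calls without single arrays.

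Some signalling genes and regulators of the gynoecium were among the calls, though only part of those listed had a probe set named here. RALFL32, a secreted peptide of the RALF family that was named after its values were seen, had 396, 373, 323 and 357 in seu and 1019, 1374, 857 and 960.1 in ant, a difference of -1.52 (standard error 0.14, limma adjusted p = 9.17e-05). WES1, also called GH3.5, joins amino acids to auxin. Its signal was 84.8, 82.1, 77.3 and 118 in seu, against 277, 194, 158 and 238 in ant, a difference of -1.25 (standard error 0.27, limma adjusted p = 0.0257). It was added to the list of auxin response genes after its values were seen, and none of the other 14 measured was called by limma, with 2 at an unadjusted p under 0.05. WES1 lost the call without single arrays (limma adjusted p = 0.0709 without ant replicate 1). HYH, a bZIP factor of light responses, and LRP1, a SHI-family regulator, were named after their values were seen. HYH differed by -1.23 (standard error 0.22, limma adjusted p = 0.00998) and LRP1 by -1.19 (standard error 0.25, limma adjusted p = 0.0214), the second of which was lost without single arrays (limma adjusted p = 0.062 without ant replicate 3).

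Of 23 brassinosteroid genes listed, 2 had a probe set named here, and both were lower in seu, beside 0.874% of all named genes. The 2 cannot speak for the rest of the list. BRL1, a receptor of the BRI1 type, had 18.9 to 25.9 in seu and 43.6 to 57.9 in ant, a difference of -1.09 (standard error 0.25, limma adjusted p = 0.0355). BIM1, a bHLH partner of the response factor BES1, had 569 to 807 in seu and 918 to 1302 in ant, a difference of -0.62 (standard error 0.14, limma adjusted p = 0.0363). With single arrays left out neither call held throughout (limma adjusted p = 0.101 without seu replicate 1 for BRL1 and limma adjusted p = 0.109 without seu replicate 4 for BIM1). BRL1, whose seu signal was near the floor, also lost its call with log2(signal + 16) and with a trended, robust fit. Both genes lost it in an ANOVA without moderation, and BIM1 also with only the seu and ant arrays. EMS1, a receptor kinase known for its part in anther cell fate, had 2197, 2483, 2369 and 2393 in seu and 4239.6, 2981, 3283 and 3580.2 in ant, a difference of -0.57 (standard error 0.12, limma adjusted p = 0.0193). It lost the call without seu replicate 1 and without 1 ant array (limma adjusted p = 0.0598 without seu replicate 1).

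Of 10 measured carpel and gynoecium regulators (of 42 listed), 3 were lower in seu, beside 0.874% of all named genes, and none was higher. The median of the 10 was -0.45. Without any one of ant replicates 1 and 4 or seu replicates 1 and 2, 1 was lower. The called genes were NGA1, NGA2 and ALC, a bHLH gene of the fruit opening zone. ALC had 1577, 1754, 1978 and 1712 in seu, against 2193, 2651, 2041 and 2321 in ant. Its difference of -0.39 (standard error 0.09, limma adjusted p = 0.0373) was among the smallest called, and it was lost without single arrays (limma adjusted p = 0.106 without seu replicate 1). SPT, a bHLH relative of ALC that promotes carpel margin tissue, was present in both mutants at 558 to 954 in seu and 645 to 994 in ant and had a difference of -0.09 (standard error 0.19, limma adjusted p = 0.915). The summed signal of the 10 genes ranged from 3306 to 4288 over the seu arrays and from 4712 to 5438 over the ant arrays. It was 4662 to 5192 over the wild-type arrays and 4494 to 5337 over the seu ant arrays. ALC alone gave 1577 to 1978 of the sum in seu and 2041 to 2651 in ant, so the sum does not weigh the 10 genes alike. KAN2, which specifies the outer side of lateral organs, was the only called member of 7 measured polarity genes, at -0.38 (standard error 0.08), and lost the call without single arrays (limma adjusted p = 0.0552 without ant replicate 2). AFO, also known as FILAMENTOUS FLOWER, and PHV differed by -0.01 (standard error 0.15) and -0.11 (standard error 0.16).

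Few markers of other floral tissues had a probe set named here. Those few were low, and they cannot speak for the rest. The 4 measured stamen, tapetum and pollen wall markers (of 22 listed) summed to 64.0 to 88.6 over the seu arrays and 79.3 to 120.3 over the ant arrays, where 64.0 is the sum if all lay at the floor. None was called, and the part of other tissues in the differences was not tested. The floral organ genes RBE and UFO, the 2 measured of 10 listed, summed to at most 67.2 on a seu array and were at the floor on all 4 ant arrays. Of 5 measured ovule and integument genes, VDD alone was called. INO, which marks the outer integument, was near the floor at under 16 to 36.3 in seu and under 16 to 35.8 in ant. In pooled tissue, fewer cells of a type and less RNA per cell cannot be told apart.

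Some lists held no called gene, though only part of each had a probe set named here. None of 41 MADS-box factors (of 99 listed), 9 cell cycle and replication genes (of 79), 8 histones (of 23), 8 homeobox factors (of 90) or 8 flavonoid genes (of 30) was called by limma, and at an unadjusted p under 0.05 they held 1, 0, 0, 3 and 1 genes. Without seu ant replicate 1, 1 MADS-box gene was called higher in seu. The MADS-box genes had a median of 0.00, but only 6 of 41 had a mean log2 signal over 6, so that for most of them a difference could hardly be measured. All 9 cell cycle genes were over that level, and their differences ran only from -0.09 to 0.18. For histones the range was -0.20 to 0.03. For the lists that follow, the share called over all named genes was 2.53%. Among other regulators, 13 bHLH factors (of 46 listed) held MYC4, higher in seu by 0.83 (standard error 0.19), and ALC. The 8 zinc finger factors (of 58 listed) held GIS, lower by 1.57 on the log2 scale. Both the MYC4 (limma adjusted p = 0.0997 without seu replicate 2) and the GIS call (limma adjusted p = 0.136 without seu replicate 2) were lost without single arrays, and their seu and ant arrays overlapped. SHN3 was the only call among 8 ERF and DREB factors (of 61 listed). None of 7 WRKY factors (of 68 listed) or 6 auxin synthesis and transport genes (of 35) was called by limma. At an unadjusted p under 0.05 these 2 lists held 1 and 0 genes. Within DNA methylation and silencing, CHR34, a chromatin remodeller of the SNF2 type, was the only one called of 14 measured (of 68 listed). CHR34 had 411, 430.1, 334 and 395 in seu and 204, 202, 205 and 203 in ant, a difference of 0.94 (standard error 0.16, limma adjusted p = 0.00816). Its ant arrays were almost identical. TRY and SIM, which act in trichome patterning and in endoreduplication of trichomes and were named after their values were seen, differed in opposite directions, by 0.84 (standard error 0.17) and -1.04 (standard error 0.24), and each lost its call without single arrays (limma adjusted p = 0.0598 without seu replicate 4 for TRY and limma adjusted p = 0.0967 without seu replicate 1 for SIM).

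**Figure D4:**
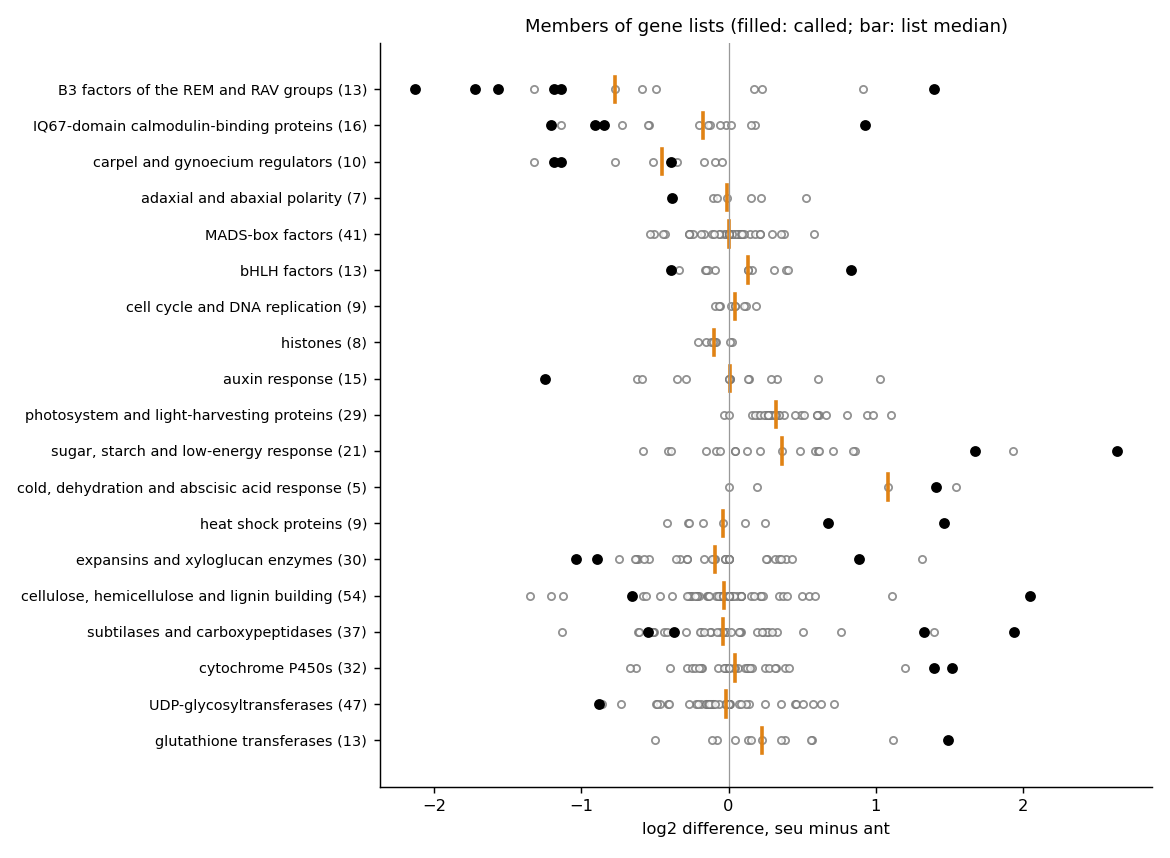
Log2 difference, seu minus ant, of every measured member of 19 gene lists, with the number measured after each list's name. Filled points were called, open points were not, and the orange bar is the list median. B3 factors lie mostly to the left of 0, photosystem genes mostly to the right with no member called, and cell cycle genes and histones close to 0.

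Of the 31 genes that the study put forward from these samples as candidates in the carpel margin, 16 had a probe set named here. In seu against ant, 3 of them were lower (NGA1, REM22 and EMS1), 1 was higher (VDD) and 12 were not called. Over all named genes, 0.874% were lower and 1.65% higher. Because the study chose these candidates for low signal in seu ant and in a single mutant, their number and directions are not independent of the samples. AT5G17080, a cathepsin-related gene, had the largest difference of these 12, 1.26 (standard error 0.34, limma adjusted p = 0.0725), with 1422, 1494, 2194 and 1713 in seu and 577, 479, 925 and 955 in ant. Its groups did not overlap. YAB3, of the YABBY family of organ polarity factors, differed by 0.52 (standard error 0.38, limma adjusted p = 0.578) and IAA18, an auxin response repressor, by 0.33 (standard error 0.17, limma adjusted p = 0.397).

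The wild-type and seu ant arrays were then set beside the called genes as a description, since their means share no array with the difference itself. Of the 225 genes higher in seu, the wild-type mean was nearer to seu in 127 (56.4%) and nearer to ant in 98. Of the 119 lower in seu, it was nearer to seu in 55 (46.2%) and nearer to ant in 64, beside 61.4% nearer to seu among all 7637 named genes with a mean log2 signal over 6. Wild type lay between the mutants for 153 and 75 of these genes, above both for 42 and 26 and below both for 30 and 18. The seu ant mean was nearer to seu in 193 of the 225 genes (85.8%) and in 86 of the 119 (72.3%), beside 62.4% of those 7637 genes. It lay above both single mutants for 144 of the genes higher in seu and below both for 52 of those lower in seu. Shares above or below both were not worked out over all named genes, so these counts have no background beside them. The 7637 genes were also held to a signal level that the called genes were not.

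Single genes show these arrangements. For TBL36 and VDD the ant arrays stood apart from wild type, which gave 425 to 555 for TBL36 and 555 to 742 for VDD. For JMT and XTH32 it was the seu arrays that stood apart, with wild-type values of 29.7 to 85.6 and 393 to 773. BAM5 was highest in seu ant, at 15403 to 19519, and lowest in wild type, at 120.1 to 302, so that both single mutants lay between them. SCPL32 had 82.0 to 151 in seu ant and 74.1 to 112 in wild type, under both single mutants. AT2G22420 had 829 to 997 in wild type, above every seu array and under every ant array. MSRB9 had 159 to 389.8 in seu ant, above every seu array, and under 16 to 58.6 in wild type. For NGA1 and REM22 the ant arrays lay near wild type (466 to 558 and 2726 to 3530.0), and seu ant was lower than both single mutants (47.4 to 131 and 46.4 to 253). ALC was arranged otherwise, with 3291 to 4047 in seu ant and 1366 to 1513 in wild type. Here too ant lay above seu, but seu ant was the highest and wild type the lowest.

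**Figure D5:**
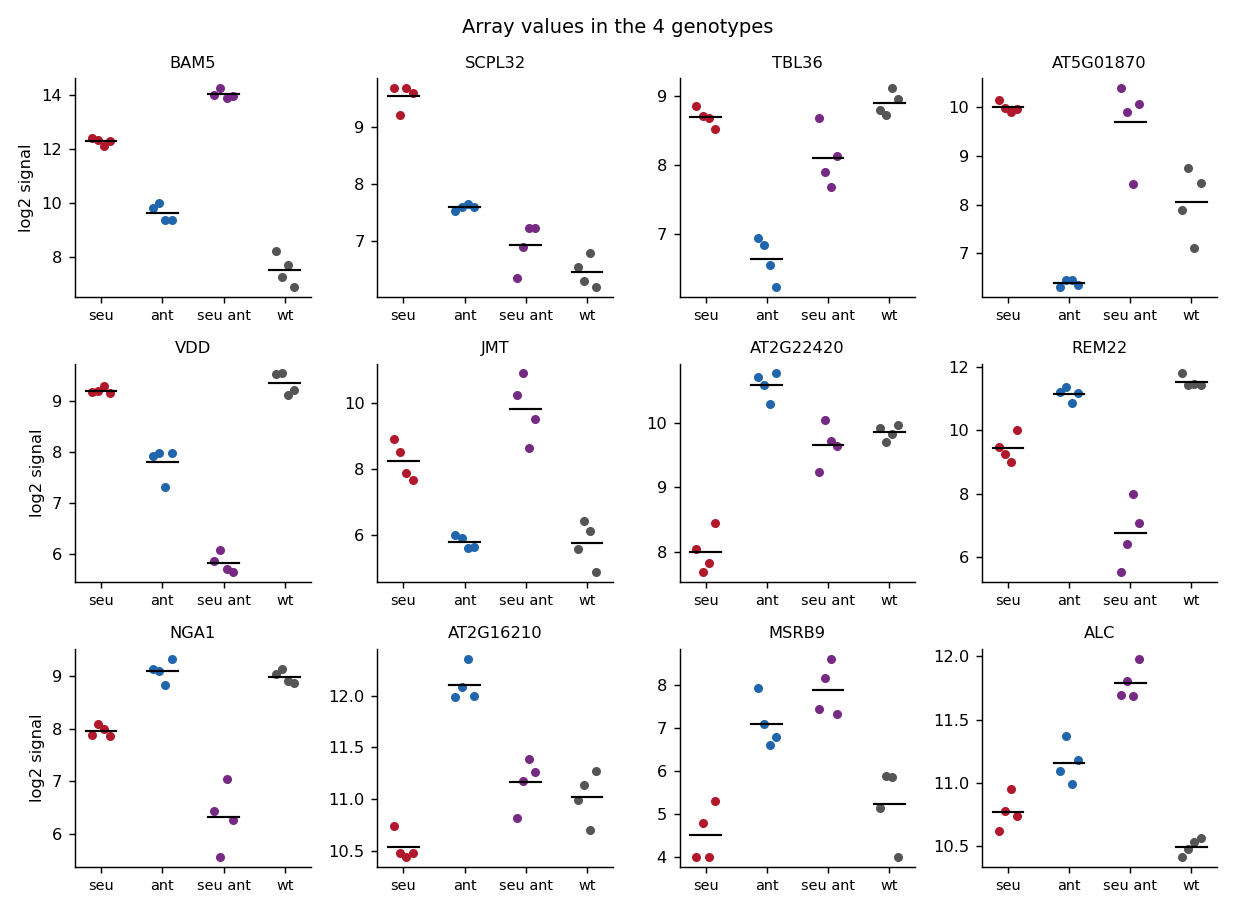
Log2 signal of 12 genes on each of the 4 arrays of seu, ant, seu ant and wild type (wt), with the group mean as a black bar. The vertical axes differ between panels and do not start at 0. The seu and ant arrays do not overlap in any panel, and the place of wild type and seu ant relative to them differs from gene to gene.

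Called genes were spread over all 5 chromosomes, at 2.64%, 1.92%, 2.72%, 2.75% and 2.58% of the named genes on chromosomes 1 to 5. Among the 200 named genes nearest to SEU, 100 on each side in the order of locus names, 3 were called (1.5%), and among the 200 nearest to the ANT locus 6 were called (3%). The stretch of 100 consecutive named genes with the most calls lay on chromosome 4, between the names AT4G16080 and AT4G17090. It held 9, of which 7 were higher in seu, with CT-BMY and the autophagy gene ATG8F among the 9. Over all named genes 2.53% were called. The stretch was picked as the highest of all overlapping stretches, so its count is high by selection. Whether it exceeds what such a pick gives by chance was not tested.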

How the data were processed

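Total RNA from pooled gynoecia was hybridized to Affymetrix ATH1 arrays. The deposited values are linear signal intensities that the authors made with MAS5, whose version is not given here; each array had been scaled to a trimmed mean of 500.04. Here the 64 Affymetrix controls were dropped, signals below 16 were raised to 16 and put on the log2 scale, and limma 3.58.1 (R 4.3.3) fitted 1 mean per genotype over 16 arrays, with eBayes and Benjamini-Hochberg adjustment over 22746 probe sets. The fit was checked on simulated data. Loess-normalized values of the study were not used. Names came from the array's annotation and a RefSeq gene table (13776 probe sets named, 8970 not). For 340 of the named probe sets the array's annotation gave no gene, and the locus was taken from the study's supplementary tables. Titles came from those tables too. Of several probe sets of 1 gene, the one with the highest mean was taken.

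Named in the text are SEU, the 15 largest positive and negative differences among calls without overlap, up to 4 called members of each list with the largest differences, the study's candidate genes, and a few genes marked as named after their values were seen. Uncalled list members are named as values only. The members and lists were chosen with earlier results of these data known. A promoter search was not run. Alternatives are given in the closing section. The labels name the 4 samples of a genotype as biological samples, and their p-values measure the spread between pools. Intensities carry no read depth, so the number of arrays limits the precision.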

Additional observations from a re-analysis of the deposited data

Results flagged for a closer look

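In 14 of the 188 groups of 4 arrays behind the named genes, 1 array stood apart from the other three by more than Dixon's 95% limit, which chance passes in about 1 of 20 groups. Among seu arrays, SEU gave 180.9 in replicate 1 (others 309.9 to 340.0), IAA18 968.8 in replicate 1 (others 1261 to 1271) and AT2G16210 1716 in replicate 1 (others 1390 to 1430.4). In seu replicate 3, IQD27 gave 41.9 (others 87.7 to 100.3), COR15B 105.9 (others 171.1 to 176.9) and AT2G43620 87.3 (others 121.6 to 125.6), and in seu replicate 4 COR15A gave 26.6 (others 103.8 to 112.4).

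Among ant arrays, replicate 3 stood apart for UGT84A1 at 767.9 (others 1089 to 1134), LRP1 at 314.2 (others 254.2 to 258.6), VDD at 158.4 (others 242.6 to 253.3) and TRY at 162.3 (others 255.4 to 271.9). Replicate 2 stood apart for GIS at 57.7 (others 108.7 to 121.3) and AT5G59305 at 40.0 (others at most 16.7), and replicate 4 for MYC4 at 107.3 (others 59.9 to 64.9).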

How the results depend on the processing

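Of 77 named genes called different, none changed direction under any alternative or within either run of consecutive sample numbers, each of which holds 2 arrays of each genotype. Where the seu and ant arrays of a gene do not overlap, its direction within a run or without 1 array is fixed beforehand. The constant direction is therefore no separate support for the calls. With 1 of the 16 arrays left out, 45 kept their call throughout, the number of probe sets called was 263 to 451 higher and 148 to 242 lower, and SEU kept its call. A minimum log2 difference of 1 left 206 higher and 91 lower. The other alternatives gave counts within 1.5 times the reported ones. Using only the 8 seu and ant arrays gave 331 higher and 179 lower, and 22 of the 77 genes lost their call. Among the 22 were COR15B, CYP71B26, AT4G37180 and AT5G17700, which had kept their call whichever single array was left out. An ANOVA per probe set without moderation, on the same floored signals and not on the study's Loess-normalized values, gave 330 and 174 (10 lost). With log2(signal + 16) the counts were 396 and 199 (6 lost), and a floor of 32 gave 395 and 217 (4 lost: AT3G28580, Fes1B, GH9B13 and scpl41). The causes were not tested. A block for the run of sample numbers gave 420 and 230. No paired analysis was possible because the labels give no replicate numbers that the genotypes share. Dim genes are limited by the floor, since 567 probe sets lay under 16 on every array.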
